A study of Homo sapiens with 6 samples.

Results

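FRMD4A, GPATCH8, FAM208A, PFDN1, AKAP11 and WDPCP are the 6 genes that hold 6 of the 10 strand-specific 10 kb windows with the smallest adjusted p for more QKI-5 crosslinking than in controls, among windows whose level in each QKI-5 library was above that in each control library. They were chosen by that contrast, so their levels in QKI-5 libraries against controls are given as a description, with no test. The gene intervals, on hg19, touch 42 of the 29960 windows that could be tested, out of 174732 with any event. The data are iCLIP libraries, which record the nucleotide at which a protein was crosslinked to RNA, made in BEAS2B, an established human cell line of bronchial epithelium. All cells received UV at 150 mJ/cm2. In 3 libraries the RNA was recovered with an antibody against QKI-5, and 3 control libraries were made from the same line with no antibody. The labels give each group replicates 1 to 3 and do not say that these were separate cultures, so the spread between libraries may be technical.

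QKI, or Quaking, is an RNA-binding protein of the STAR family that recognises a short element in RNA through its KH domain. QKI-5 is its nuclear form and is known as a regulator of alternative splicing of pre-mRNA in epithelial and other cells. Binding in a pre-mRNA can lie in introns, far from the coding exons, or in the untranslated end of the transcript. Which of these regions the crosslinks below fall in was not analysed here, since no hg19 gene models were used, and no sequence is shown for the same reason.

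The QKI-5 libraries held between 2143279 and 7283982 crosslink events and the controls between 29810 and 137926. Levels are given as EPM, events per 1000000 events of the library, on the strand of the gene unless antisense is named. A single event was worth 7.25, 24.1 and 33.5 EPM in control replicates 1, 2 and 3, against at most 0.467 EPM in a QKI-5 library, so each control level below rests on few events. EPM are shares of a library: the amount of RNA recovered was not measured, and more binding to a transcript and more of that transcript cannot be told apart. Intervals in brackets are exact 95% intervals and cover counting error only.

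Along the whole gene, FRMD4A had levels of 542, 562 and 371 EPM with the antibody (replicates 1, 2 and 3, the order used throughout) and of 189, 145 and 335 EPM without it. FRMD4A encodes a FERM domain scaffold protein of epithelial cell polarity. GPATCH8, which encodes a nuclear protein with a G-patch domain, had 416, 370 and 487 EPM against 225, 72.3 and 101 EPM. PFDN1 encodes a subunit of prefoldin, the chaperone that passes unfolded actin and tubulin to the cytosolic chaperonin, and had 339, 318 and 321 EPM against 87.0, 24.1 and 101 EPM. AKAP11, an anchoring protein for protein kinase A, had 141, 116 and 147 EPM against 79.8, 48.2 and 101 EPM. In these 4 genes each QKI-5 library was above each control, in sums that include the window chosen for that separation. Of all tested 10 kb windows, 23.7% were apart in this way, and the share over other whole genes was not analysed here. FAM208A, named TASOR in current RefSeq and a part of the HUSH complex that silences repeats and transgenes in chromatin, had 371, 331 and 363 EPM against 152, 217 and 335 EPM. WDPCP, an effector of planar cell polarity needed for cilia, had 389, 251 and 426 EPM against 218, 96.4 and 570 EPM. For these last 2 genes the whole-gene levels of the groups overlapped, in FAM208A by 1 library of each group and in WDPCP through control replicate 3, the highest of all 6 libraries.

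Per kb of gene, the mean level over QKI-5 libraries was 5.62 ± 0.334 EPM (SD, n = 3) in FAM208A and 5.61 ± 0.195 EPM in PFDN1, and the ranges of these 2 genes overlapped. GPATCH8 followed at 3.92 ± 0.548 EPM per kb and AKAP11 at 2.63 ± 0.324 EPM per kb, each with its libraries apart from those of its neighbours in the order. WDPCP at 0.760 ± 0.198 and FRMD4A at 0.715 ± 0.153 EPM per kb were lowest and overlapped. These last are the longest genes, of 467 and 687 kb, while the other 4 span 51.1 to 108 kb. The 6 genes together held 0.220, 0.195 and 0.211% of all events of the QKI-5 libraries and 0.0950, 0.0603 and 0.154% of those of the controls.

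Each gene has 1 window in which the contrast was called by edgeR's quasi-likelihood test, referred to below as its chosen window. Among all tested windows 0.754% were called higher and 0.107% lower, and of the 42 windows of the 6 genes 6 were called higher and 0 lower. The rule fixed this count. In FRMD4A the chosen window was chr10:13760001-13770000 on the minus strand, 602866 nt from the 5′ end of the gene and 74295 nt from its 3′ end. With the antibody it had 263, 223 and 142 EPM, and without it 7.25, 24.1 and 33.5 EPM, which was 1 event in each control. The log2 fold change was 4.42 (SE 0.82). The ratio of pooled levels, in which control replicate 1 weighs most, was 15.9 (5.43 to 77.1), and the ratio of library means 9.69.

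In GPATCH8 the window was chr17:42540001-42550000, minus strand, 30854 nt from the 5′ end. Its QKI-5 levels were 243, 233 and 279 EPM, and the controls had 29.0, 0 and 33.5 EPM (log2 fold change 3.97, SE 0.74, pooled ratio 10.4, 4.47 to 32.2). In FAM208A it was chr3:56650001-56660000, minus strand, which runs past the 3′ end of the gene and holds its last 5839 nt. QKI-5 replicates had 199, 167 and 201 EPM there and controls 7.25, 0 and 67.1 EPM (log2 fold change 4.26, SE 0.82, pooled ratio 13.5, 4.62 to 65.6, ratio of means 7.62). Only 45 of its 2387 pooled QKI-5 events, 1.89%, lay beyond the end of the gene interval.

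In PFDN1 the window was chr5:139640001-139650000, minus strand, 32706 nt from the 5′ end and 15366 nt from the 3′ end. It had 273, 234 and 234 EPM in QKI-5 libraries and 36.3, 0 and 101 EPM in controls, the highest control level among the 6 windows (log2 fold change 3.27, SE 0.67, pooled ratio 6.73, 3.41 to 15.6). In AKAP11 the window was chr13:42880001-42890000, plus strand, with 80.6, 69.5 and 72.3 EPM in QKI-5 libraries and no event in any control. Against the floor of 3 events over the pooled controls this was at least 5.35-fold higher, and the exact 95% lower limit of the ratio, which allows for counting error in 0 events, was 4.34. In WDPCP the window was chr2:63670001-63680000, minus strand, with 105, 69.5 and 116 EPM against 0, 24.1 and 0 EPM, the control level being 1 event (log2 fold change 4.87, SE 1.06, pooled ratio 21.2, 3.79 to 837, ratio of means 12.03). In each of the 6 chosen windows the lowest QKI-5 library was above the highest control, as the rule required.

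The windows on either side of the rule's limit were both on the minus strand of chromosome 9. Ranks 9 to 12, with the WDPCP window as rank 9, had the same adjusted p and were ordered by log2 fold change. The limit between ranks 10 and 11 therefore rests on that order and not on adjusted p. The tenth, chr9:95470001-95480000, had a log2 fold change of 4.14 (SE 0.90), and the next, chr9:140400001-140410000, 3.18 (SE 0.69).

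**Figure D1:**
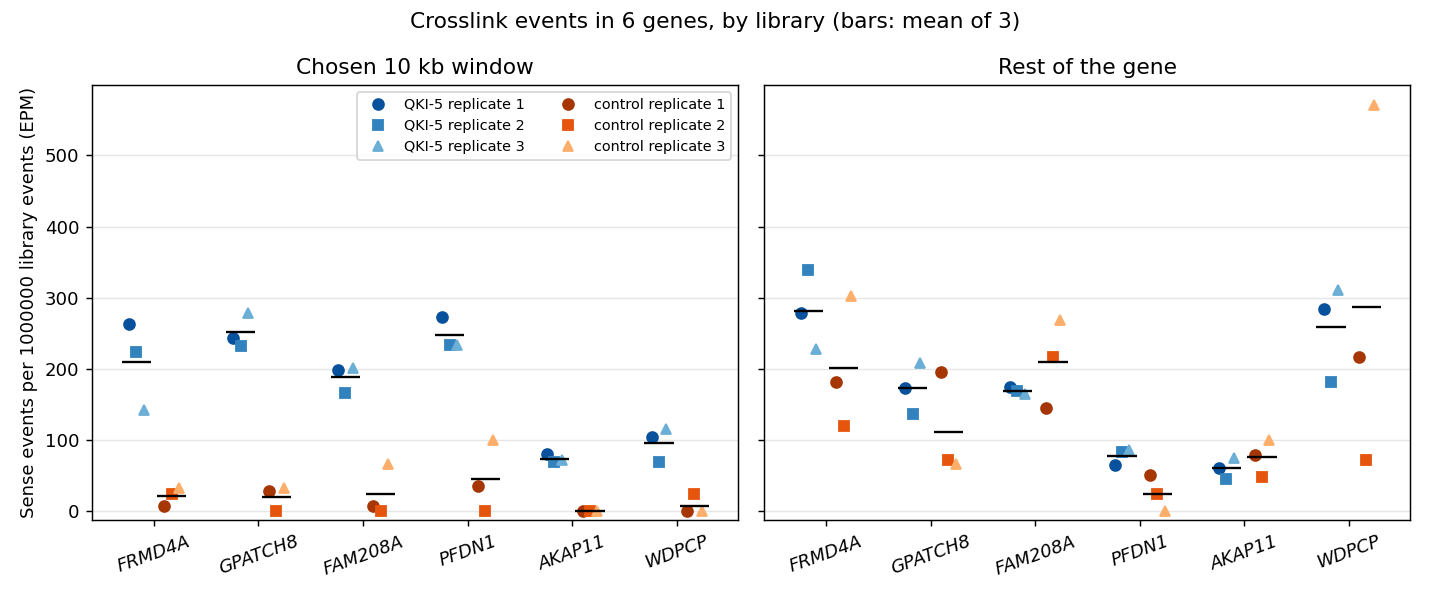
Sense events per 1000000 library events (EPM, vertical axis, linear) in the chosen 10 kb window (left) and in the rest of the gene (right), for 6 genes. Points are single libraries and horizontal bars are means of 3 libraries. In the chosen windows every QKI-5 library lies above every control, as the rule required, while in the rest of the gene the groups overlap in all genes but PFDN1. Of all tested 10 kb windows 23.7% had every QKI-5 library above every control.

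Outside the chosen windows the picture differed. In FAM208A the rest of the gene had 175, 168 and 165 EPM in QKI-5 libraries and 145, 217 and 268 EPM in controls, a pooled ratio of 0.971 (0.702 to 1.38). In AKAP11 the values were 60.5, 46.2 and 74.4 EPM against 79.8, 48.2 and 101 EPM, a ratio of 0.802 (0.490 to 1.41). WDPCP had 284, 181 and 310 EPM against 218, 72.3 and 570 EPM, a pooled ratio of 1.14 (0.862 to 1.54) but a ratio of library means of 0.902. In these 3 genes the control mean was thus the higher of the pair, with overlapping libraries. GPATCH8 had 173, 137 and 209 EPM against 196, 72.3 and 67.1 EPM (pooled ratio 1.14, 0.808 to 1.68). FRMD4A had 278, 339 and 228 EPM against 181, 121 and 302 EPM, and its pooled ratio of 1.49 (1.09 to 2.09) had an interval above 1 although control replicate 3 was above QKI-5 replicates 1 and 3. PFDN1 was the only one of the 6 genes in which the groups stayed apart outside the window, at 65.2, 83.5 and 86.5 EPM against 50.8, 24.1 and 0 EPM (pooled ratio 1.92, 0.970 to 4.46, ratio of means 3.14). These control levels rested on 7, 1 and 0 events. Of all tested 10 kb windows 23.7% were apart in this way, so nothing particular to PFDN1 is read from it.

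Of the 36 tested windows of these genes other than the chosen ones, 28 (77.8%) had a log2 fold change above 0, beside 77.3% of all tested windows. Their median log2 fold change was 0.52, beside 0.78 over all tested windows. In 8 of the 36 each QKI-5 library was above each control, a share near the 23.7% of all tested windows.

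The drop from the chosen window to the next was steep. In FRMD4A the adjoining windows had QKI-5 means of 14.9 ± 2.93 EPM on the 3′ side and 11.8 ± 6.61 EPM on the 5′ side, beside 209.6 ± 61.6 EPM (SD, n = 3) in the chosen window. In PFDN1 they had 23.9 ± 8.92 and 27.2 ± 6.71 EPM beside 247 ± 22.6 EPM. AKAP11, whose window had the lowest mean QKI-5 level of the 6, with libraries that overlapped those of WDPCP, had 14.7 ± 4.76 and 13.2 ± 5.42 EPM beside 74.1 ± 5.75 EPM. GPATCH8 was the exception in shape: its 3′ neighbour, at 41.7 ± 14.5 EPM, was higher than its 5′ neighbour at 14.2 ± 1.66 EPM, with no overlap of the libraries. The second window by QKI-5 mean adjoined the chosen one in GPATCH8 and PFDN1 and lay elsewhere in the other 4 genes. The highest of these was in FAM208A, at chr3:56680001-56690000, with 56.3 ± 7.73 EPM.

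As a share of the gene's own sense events, a measure in which the library total cancels, the chosen window of PFDN1 held 80.7, 73.7 and 73.0% with the antibody. It held 58.4, 63.0 and 57.2% in GPATCH8, 57.1, 60.1 and 49.3% in AKAP11, and 52.8, 49.1 and 54.4% in FAM208A. In FRMD4A 48.6, 39.8 and 38.4% of events lay in 1.46% of the gene's length, and in WDPCP 26.9, 27.7 and 27.2% lay in 2.14% of its length. With each position counted once, these shares were 25.2, 34.2 and 30.4% in FRMD4A, where replicate 1 went from the highest of the 3 to the lowest, and 15.3, 22.9 and 20.9% in WDPCP. WDPCP had the smallest mean share of the 6 genes by either count, 27.3 ± 0.42% (SD, n = 3) by events and 19.7 ± 3.93% by positions. In pooled controls the share was 7.14% of 42 events in FRMD4A (1.498 to 19.5%), 13.5% of 37 in GPATCH8 (4.54 to 28.8%) and 7.50% of 40 in FAM208A (1.57 to 20.4%). It was 0% of 16 events in AKAP11 (upper limit 20.6%), 1.96% of 51 in WDPCP (0.0496 to 10.4%) and 50.0% of 16 in PFDN1 (24.7 to 75.3%). Over the 6 genes together the windows held 52.8, 51.0 and 49.2% of sense events in QKI-5 libraries and 8.40, 8.0 and 15.2% in controls. The rule chose windows that were higher in QKI-5 libraries than in controls. A larger share with the antibody follows from that choice and is no separate support for it.

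**Figure D2:**
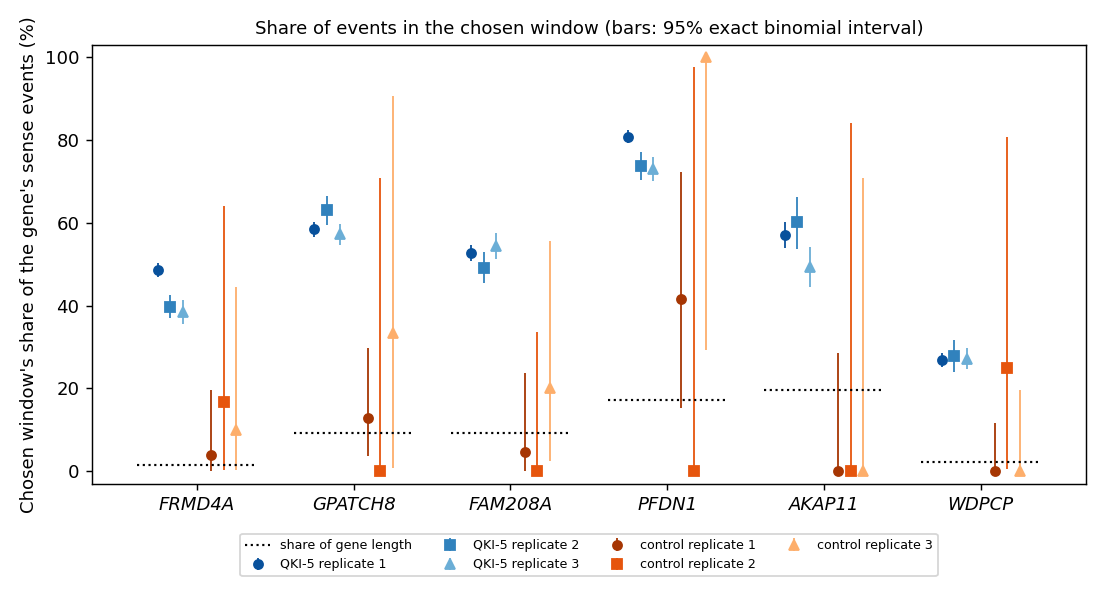
Share of each gene's sense events that fell in its chosen window (vertical axis, percent), for each library. Points are libraries, vertical bars are exact 95% binomial intervals and dotted lines mark the window's share of the gene's length; the QKI-5 shares run from 26.9% in WDPCP to 80.7% in PFDN1, and control intervals are wide.

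Position along the gene differed from gene to gene. FRMD4A was nearly free of events in its 5′ part: the first 60% of its length held 6.11, 7.14 and 9.24% of its events with the antibody, and the last 20% of its length held 77.0, 73.2 and 71.4%. In control replicates 1, 2 and 3 the first 60% of the length held 7.69% of 26 events, 0% of 6 and 50.0% of 10. FAM208A also had most events in the last 20% of its length, 56.4, 54.6 and 58.3%. PFDN1 and AKAP11 had their maximum between 60 and 80% of the length, with 81.2, 75.3 and 75.1% in PFDN1 and 44.5, 46.0 and 41.7% in AKAP11. GPATCH8 and WDPCP had theirs between 20 and 40% of the length, with 64.4, 68.1 and 62.2% in GPATCH8 and 48.1, 50.1 and 48.9% in WDPCP. Of the 5 equal parts of each gene, the one with the most events was the same in all 3 QKI-5 libraries for each of the 6 genes. That part holds all or most of the chosen window, which the rule took as high in each QKI-5 library. This likeness therefore follows largely from the choice.

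**Figure D3:**
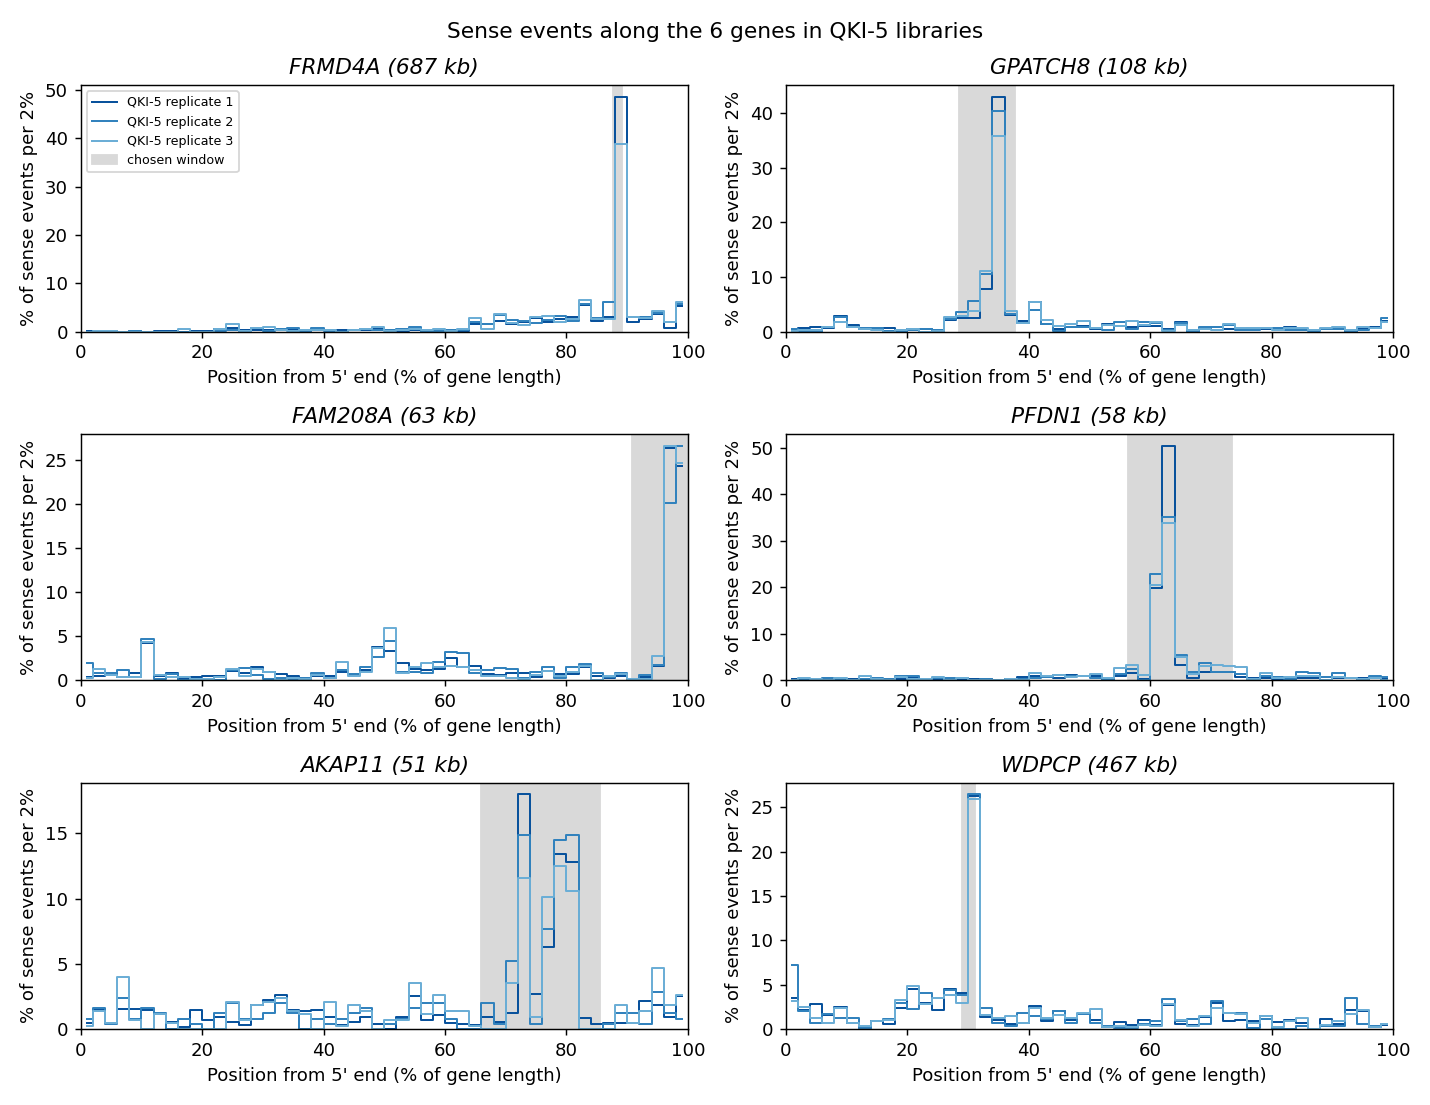
Percent of the gene's sense events per 2% of gene length (vertical axis) from the 5′ end (0) to the 3′ end (100) in the 3 QKI-5 libraries, with the chosen window in grey. FRMD4A is nearly empty over the first 60% of its length, and the FAM208A peak lies at the 3′ end.

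Within the windows, events were concentrated further. The shortest stretch that held 50% of the window's events was 268, 471 and 325 nt in FRMD4A, and the median event lay 5067, 5152 and 5089 nt from the window's 5′ edge. In PFDN1 the stretch was 300, 624 and 680 nt, and in WDPCP 253, 934 and 859 nt, with medians 5835, 5835 and 5845 nt from the edge. FAM208A needed 916, 803 and 914 nt and GPATCH8 919, 1368 and 1356 nt. The narrowest value came from QKI-5 replicate 1, the deepest library, in FRMD4A, PFDN1, WDPCP and GPATCH8. AKAP11 was the most spread, at 1673, 1485 and 1569 nt, although its medians, 6148, 6149 and 6148 nt, nearly coincided.

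Within the chosen windows the QKI-5 libraries had similar profiles. Outside them r was mostly lower, but bin length and density of events differed too, so the values are not like for like. Pearson's r of 100 nt bins between pairs of QKI-5 libraries, a description across bins of one window, ran from 0.936 to 0.958 in WDPCP, from 0.851 to 0.966 in FAM208A and from 0.712 to 0.839 in AKAP11. It ran from 0.880 to 0.906 in PFDN1, from 0.832 to 0.904 in GPATCH8 and from 0.827 to 0.910 in FRMD4A, whose range overlapped that of the rest of the gene. In 1 kb bins of the rest of the gene it ran from 0.655 to 0.830 in FRMD4A, from 0.741 to 0.779 in GPATCH8 and from 0.779 to 0.843 in FAM208A. It was lower in PFDN1 (0.380 to 0.641), AKAP11 (0.395 to 0.609) and WDPCP (0.407 to 0.630). In 50 nt bins of the AKAP11 window, r ran from 0.578 to 0.742.

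**Figure D4:**
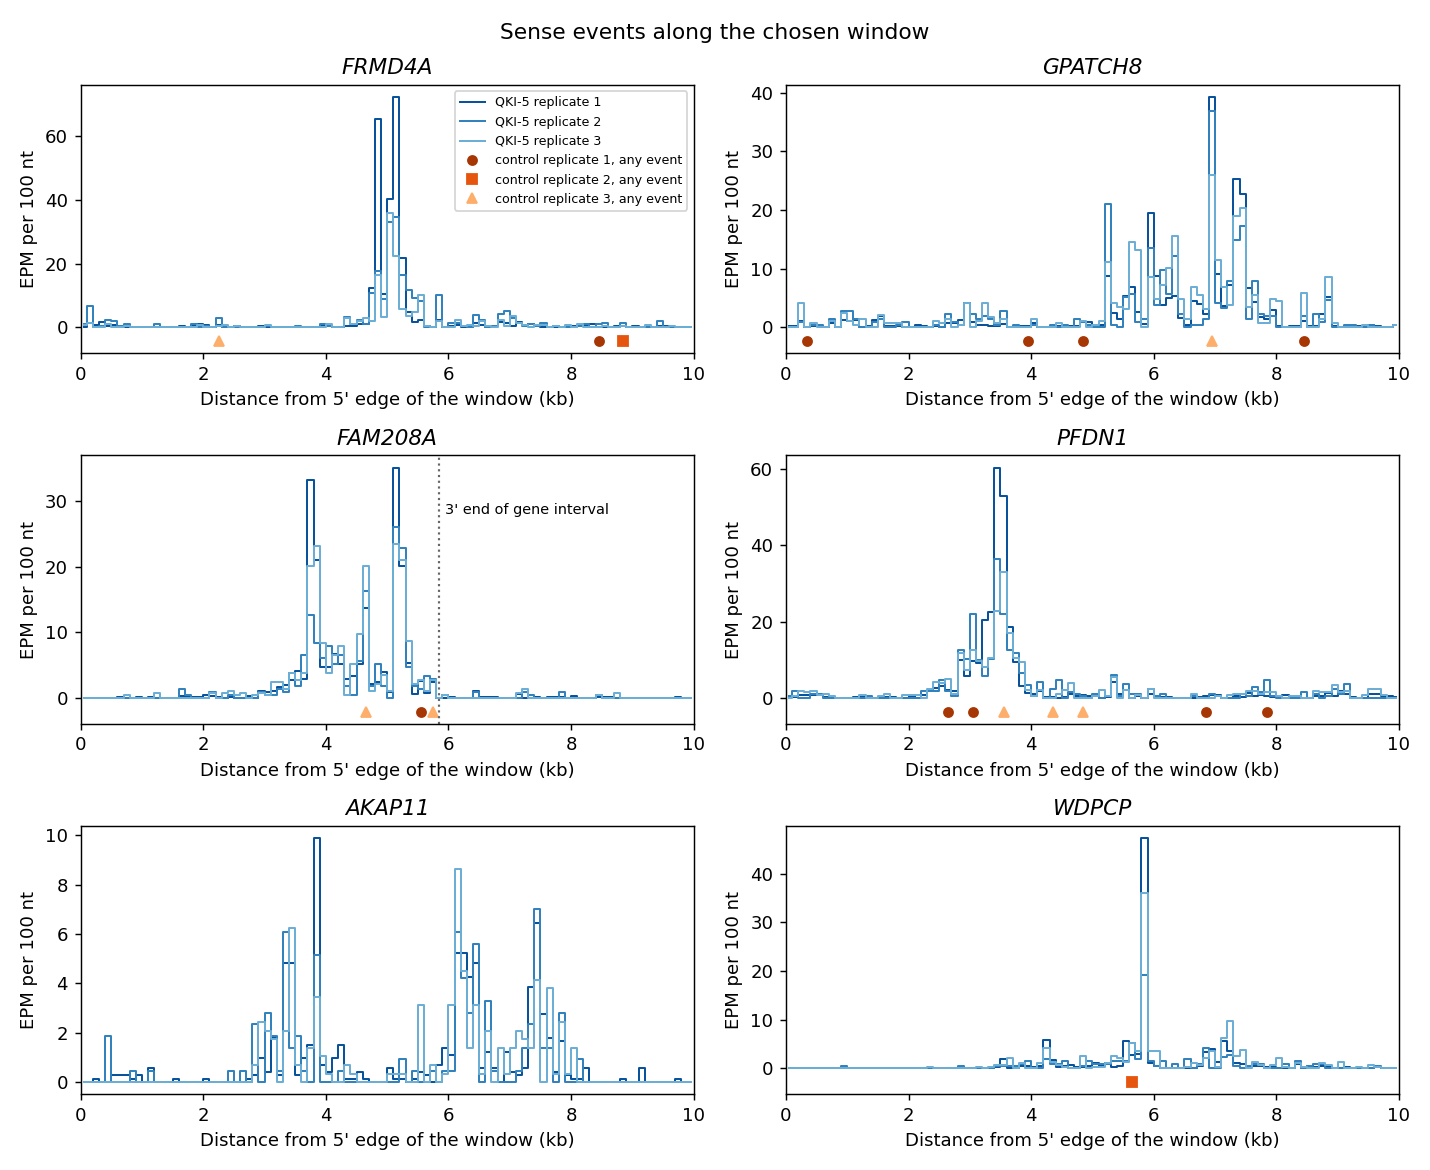
Sense EPM per 100 nt (vertical axis) against distance from the 5′ edge of the chosen window (kb) in the 3 QKI-5 libraries; symbols under the lines mark bins with any control event. FRMD4A, PFDN1 and WDPCP show 1 narrow summit region, GPATCH8, FAM208A and AKAP11 several, and the dotted line in FAM208A is the 3′ end of the gene.

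At single-nucleotide level, positions with an event in all 3 QKI-5 libraries, joined when under 16 nt apart, gave 114 sites in the 6 genes. PFDN1 had 30, of which 25 lay in its window, GPATCH8 29 (22), FAM208A 29 (23), FRMD4A 12 (9), WDPCP 9 (7) and AKAP11 5 (4). The median width of a site was 1 nt in each gene but FRMD4A, where it was 4 nt. Some sites, such as chr17:42541573 in GPATCH8, had 1 event in each QKI-5 library. How far the number of sites follows the density of events was not tested. The 3 sites with the highest level lay in the chosen window in each gene. In FRMD4A these were chr10:13764802-13764853, with 480, 64 and 58 QKI-5 events, chr10:13765109-13765149 with 405, 30 and 45, and chr10:13764963-13764989 with 88, 48 and 48. None of them had a control event. Scaled to depth they were 65.9, 29.9 and 20.1 EPM at the first of these.

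In GPATCH8 the leading site was chr17:42543038-42543048, with 163, 57 and 58 events, and its nucleotide 42543042 was the highest position of the gene in all 3 QKI-5 libraries, at 81, 29 and 36 events. Control replicate 3 had 1 event at that same nucleotide. In FAM208A the leading sites were chr3:56656185-56656234 with 281, 35 and 80 events and chr3:56654837-56654898 with 234, 50 and 63. In PFDN1 they were neighbours, chr5:139646474-139646503 with 265, 40 and 70 events and chr5:139646524-139646547 with 273, 46 and 41. In WDPCP 1 site stood above the others, chr2:63674155-63674166 with 211, 25 and 71 events, while the next, chr2:63672718-63672719, had 12, 3 and 21. AKAP11 had no site of that height: its leading one, chr13:42886149-42886150, had 9, 8 and 12 events.

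Repeated events at 1 position may be copies of 1 cDNA, and their part in these heights was not tested. Events per position were 1.39, 1.72 and 1.75 over whole QKI-5 libraries 1, 2 and 3. In PFDN1 they were 2.27, 1.83 and 1.88 and in FRMD4A 1.86, 1.63 and 1.77, whereas AKAP11 had 1.38, 1.52 and 1.69. In FRMD4A nucleotide 13765120 had 163, 6 and 11 events, which was 4.13, 0.498 and 1.03% of the gene's events, so that height rested on replicate 1.

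The controls had 20 events in the chosen windows, inside the genes, at 19 positions. At 12 of these positions a QKI-5 library had an event at the same nucleotide, and at 11 all 3 QKI-5 libraries had events within 15 nt.

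The windows that chose the genes were counted on the strand of the gene, so the sense share is also a description. Of all events in the 6 gene intervals, 98.3, 98.2 and 98.2% were, in the QKI-5 libraries, on the strand of the gene. Without the chosen windows the share was 96.8, 96.8 and 97.2%. The share over other genes was not analysed here. GPATCH8 and AKAP11 had no antisense event in any library, where 0 events allow a share of up to 0.0574 and 0.176% of the pooled QKI-5 events. FRMD4A had the most, 199, 54 and 75 antisense events, none of them in its chosen window. FAM208A had 43, 9 and 29, of which 29, 7 and 24 lay in its chosen window at the 3′ end. PFDN1 had 14, 11 and 4 and WDPCP 26, 3 and 5.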

How the data were processed

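The deposited files give counts of crosslink events per nucleotide and strand, 1 library per file, not normalized. The authors used cutadapt, Bowtie and the hg19 build, per the submitters' processing notes. Their versions, and any merging of PCR copies by barcode, are not given in the sources consulted. Event counts were added up in 10 kb windows of each strand and tested with edgeR 4.0.16 (R 4.3.3, limma 3.58.1; quasi-likelihood F test, TMM, filterByExpr, group as the only term) over all windows, with Benjamini-Hochberg adjustment and a threshold of 0.05. The procedure was tested on simulated counts with planted changes and a single fixed spread between libraries. That spread was not estimated from these libraries, so the simulation does not show how reliable the calls here are. Log2 fold changes carry TMM factors and EPM do not. The SE printed with them was derived from the test, as the log2 fold change over the square root of its F statistic. DESeq2 1.42.0 served as an alternative. Python 3.11.15, numpy 2.4.6, pandas 2.3.3, scipy 1.17.1 and matplotlib 3.10.9 did the rest.

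The text names the 6 genes, each gene's chosen window (its higher window with the smallest adjusted p), the windows beside it, its 3 sites with the highest geometric mean EPM (0.5 event added), and the windows ranked 10 and 11. Other positions and windows were named, and ratios of library means per gene and the sense share without the chosen windows added, after values were seen. Members and lists were chosen with earlier results of these data known. Gene regions, the QKI element and cell type markers need hg19 gene models and were not analysed here. Coordinates count from 1. Shares have exact Clopper-Pearson intervals, and ratios exact conditional binomial ones. An exact permutation test of 3 libraries against 3 cannot go below p = 0.1, and none is reported.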

Additional observations from a re-analysis of the deposited data

How the results depend on the processing

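Over all windows, 226 were called higher and 32 lower. The higher count was 85 with DESeq2's size factors, 23 with library totals and 26 with distinct positions in place of events, and leaving out 1 replicate gave 28 (without QKI-5 replicate 1) to 831 (without control replicate 1). The lower count was 58 with library totals, 130 by DESeq2's Wald test, 6 without the filter and 66 with distinct positions, and 8 to 89 with 1 replicate left out. The causes were not tested. Library totals moved the median log2 fold change of all windows from 0.78 to 0.22.

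With few control events, pairing by replicate number was undecided: deviations of same-numbered libraries correlated at 0.00094, 0.105 and 0.0717. QKI-5 replicates 2 and 3 correlated best with their own number and replicate 1 with control replicate 3. With the replicate block, edgeR called 0 windows higher and 0 lower, 0 of them in the 6 genes, with 2195 windows at an unadjusted p under 0.05; DESeq2 without the block called 226 higher and 130 lower. The log2 fold changes of the chosen windows with the block ran from 3.40 in PFDN1 to 10.32 in AKAP11.

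In the 6 genes 6 of 42 tested windows were called. With 1 replicate left out this ran from 4 of 5 tested (without QKI-5 replicate 1 or 3) to 8 of 79 (without control replicate 1). Without QKI-5 replicate 1 or 3 the AKAP11 and WDPCP windows did not pass the filter, nor did that of AKAP11 without QKI-5 replicate 2. On a grid shifted by 5 kb 7 of 48 tested windows of the 6 genes were called higher, none in AKAP11, beside 156 of 29951 over all windows. With distinct positions PFDN1 was not called (log2 fold change 2.42, edgeR adjusted p = 0.0588). Without control replicate 1 the log2 fold change was 5.68 in GPATCH8 and 4.08 in PFDN1, without control replicate 3 it was 5.74 in FAM208A, and without control replicate 2 WDPCP had no control event. With 1 QKI-5 replicate left out the lowest values were 3.59 in FRMD4A, 3.21 in GPATCH8, 3.51 in FAM208A and 2.59 in PFDN1. With distinct positions they were 3.23, 3.05 and 3.21 in the first 3 genes and 3.85 in WDPCP.

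With distinct positions the sense share was 97.8% in place of 98.2%, and the windows' share of the genes' events 40.7% in place of 51.0%. The ratio of library means outside the windows, over the 6 genes, was 1.12, and 0.938 (without control replicate 2) to 1.43 with 1 replicate left out. The pooled ratio was 1.18 (1.02 to 1.38). The 114 sites became 513 when 2 of 3 libraries sufficed, 74 when libraries were thinned to the smallest, and 187 to 345 with 1 QKI-5 library left out. The stretch centred on the median event, and leaving out controls outside the window, were added after seeing the data. Control levels are limited by depth.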

Other observations

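Outside the 6 genes, the tested window whose levels over the 6 libraries were nearest to those of the AKAP11 window was chr11:46840001-46850000 on the minus strand, at a distance of 0.26 on the log2(EPM + 10) scale, with a QKI-5 mean of 67.2 EPM and no control event. The nearest to the PFDN1 window was chr3:183880001-183890000 on the plus strand, at 0.66, and to the WDPCP window chr2:10760001-10770000 on the minus strand, at 0.80. The FAM208A, GPATCH8 and FRMD4A windows had theirs at 0.95, 1.3 and 1.49.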
